A study of Mus musculus with 3 samples.

Results

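Peaks of an ATRX chromatin immunoprecipitation were examined around the genes of the mouse olfactory and vomeronasal receptors. A peak was included when its summit, the position of highest signal given by the authors' peak caller, lay on chromosomes 1 to 19 and within 20 kb of a protein-coding gene whose symbol starts with Olfr, Vmn1r or Vmn2r. This gave 813 of 112153 peaks in control neurons and 610 of 105674 peaks in neurons that received MICAL1-FL. On the autosomes alone the lists held 110190 and 104337 peaks. The gene table, RefSeq's for GRCm38.p6, holds 1458 such genes on the autosomes, of which 1104 are Olfr, 231 are Vmn1r and 123 are Vmn2r. The genes with 20 kb on both sides cover 41.8 Mb, called receptor territory here.

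Olfr genes encode odorant receptors, which are G protein-coupled receptors of the main olfactory epithelium. Vmn1r and Vmn2r genes encode the vomeronasal receptors, which detect pheromones and other social cues and signal through different G proteins in separate layers of the vomeronasal organ. The genes of these families lie in large tandem arrays that arose by repeated duplication. Each sensory neuron expresses a single receptor allele, or very few, while the others are held silent in heterochromatin, and the families are largely silent in other neurons. ATRX is a chromatin remodeller that deposits the histone variant H3.3 with DAXX at heterochromatin, repeats and telomeres. The labels name no chemosensory tissue.

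The neurons came from C57BL6/J mouse embryos taken at E15.5 to E17.5. Lentivirus was added on culture day 5 (DIV5), and the titles of both ChIP samples give day 14. Both groups carried a virus: the control is labelled mcherry, a red fluorescent protein, and the other group MICAL1-FL. MICAL1 is a flavin monooxygenase that oxidises actin, and the labels do not spell out the suffix, the species of the insert or its promoter. There was 1 ChIP library per group, so differences between the groups had no replicate check, and no test between them was made. An input sample of control neurons is also labelled and was not analysed here. The peak identifiers of the MICAL1-FL list start with letters that do not name MICAL1-FL, and the group was taken from the sample title. Peak lists hold no expression values, so the labelled cell type could not be checked against markers.

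Receptor start regions were shown by RefSeq's windows of 250 bases before to 50 bases after the annotated start, in GRCm38.p6. These 6 windows carry the points the results turn on. The first 4 held an ATRX summit, as 14 of 1260 receptor windows did, and in them capitals mark 10 bases on both sides of a summit. Olfr459 (chr6:41772248-41772547, minus strand) was the receptor whose window held a summit in both lists. Olfr1393 (chr11:49279900-49280199, plus strand) held the deepest summit, Olfr212 (chr6:116506266-116506565, plus strand) had the most GC-rich window, and Vmn1r32 (chr6:66559659-66559958, minus strand) was the vomeronasal receptor among them. Olfr1354 (chr10:78916592-78916891, plus strand) and Olfr8 (chr10:78954957-78955256, plus strand) show how alike copies can be, and there the capital marks the single base that differs.
Olfr459: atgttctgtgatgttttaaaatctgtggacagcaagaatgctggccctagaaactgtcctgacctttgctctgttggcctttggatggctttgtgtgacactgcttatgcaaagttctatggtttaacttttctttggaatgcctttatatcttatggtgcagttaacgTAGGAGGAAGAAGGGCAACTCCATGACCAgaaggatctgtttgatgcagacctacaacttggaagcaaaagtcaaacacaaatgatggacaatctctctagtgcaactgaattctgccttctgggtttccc
Olfr1393: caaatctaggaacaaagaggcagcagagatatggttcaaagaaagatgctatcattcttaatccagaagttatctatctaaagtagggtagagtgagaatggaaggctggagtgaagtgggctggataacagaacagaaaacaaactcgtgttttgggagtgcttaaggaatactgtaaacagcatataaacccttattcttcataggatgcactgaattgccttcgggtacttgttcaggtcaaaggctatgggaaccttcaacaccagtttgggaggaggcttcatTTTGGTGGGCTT
Olfr212: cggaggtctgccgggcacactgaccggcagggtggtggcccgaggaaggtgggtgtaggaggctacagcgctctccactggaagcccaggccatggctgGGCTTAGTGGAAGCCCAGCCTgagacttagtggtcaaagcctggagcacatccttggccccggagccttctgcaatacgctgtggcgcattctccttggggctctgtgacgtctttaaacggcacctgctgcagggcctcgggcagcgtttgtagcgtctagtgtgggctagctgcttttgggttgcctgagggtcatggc
Vmn1r32: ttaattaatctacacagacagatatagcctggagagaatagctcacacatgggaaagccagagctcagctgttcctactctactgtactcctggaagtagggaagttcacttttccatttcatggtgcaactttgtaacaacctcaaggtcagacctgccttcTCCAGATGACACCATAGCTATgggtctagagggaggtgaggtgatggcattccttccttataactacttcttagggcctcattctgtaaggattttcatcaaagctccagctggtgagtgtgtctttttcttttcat
Olfr1354: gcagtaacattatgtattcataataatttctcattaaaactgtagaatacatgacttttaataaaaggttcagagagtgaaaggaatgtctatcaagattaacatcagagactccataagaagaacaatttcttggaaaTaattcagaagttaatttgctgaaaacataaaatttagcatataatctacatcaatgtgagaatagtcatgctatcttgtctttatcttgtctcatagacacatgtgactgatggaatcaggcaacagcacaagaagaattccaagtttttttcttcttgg
Olfr8: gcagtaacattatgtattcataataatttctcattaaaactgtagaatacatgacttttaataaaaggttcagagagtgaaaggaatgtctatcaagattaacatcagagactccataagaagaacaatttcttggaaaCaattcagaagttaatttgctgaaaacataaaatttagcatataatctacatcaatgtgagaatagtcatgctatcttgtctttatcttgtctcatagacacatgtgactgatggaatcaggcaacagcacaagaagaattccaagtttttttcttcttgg

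Receptor territory held fewer ATRX peaks per length than the sequence around it, in both lists. The density was 19.4 peaks per Mb (95% exact interval 18.1 to 20.8) in control and 14.6 (13.5 to 15.8) in MICAL1-FL neurons. All intervals in the text are 95% exact intervals, and they cover counting error only. Autosomal sequence outside the territory held 46.3 and 43.9 peaks per Mb. The territory thus had 0.420 times (0.391 to 0.450) the density of the remaining autosomes in control and 0.332 times (0.306 to 0.360) in MICAL1-FL neurons. These genes also had fewer summits near them one by one. Of the 1458 receptor genes, 724 (49.7%) had a control summit within 20 kb, against 84.9% of all autosomal protein-coding genes, and 593 (40.7%) had a MICAL1-FL summit, against 82%. Neighbouring receptors share peaks and are short, so these gene counts are a description.

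Odorant receptors carried more peaks per length than vomeronasal receptors. Olfr territory held 600 control peaks (22.5 per Mb, 20.7 to 24.4) and 452 MICAL1-FL peaks (16.95 per Mb, 15.4 to 18.6). The Vmn1r family, receptors of the apical vomeronasal layer, held 105 control peaks (13.8 per Mb, 11.3 to 16.7) and 77 MICAL1-FL peaks (10.1 per Mb, 7.98 to 12.6). The Vmn2r family, whose members have a long extracellular domain and mark the basal layer, held 109 control peaks (14.3 per Mb, 11.8 to 17.3) and 82 MICAL1-FL peaks (10.8 per Mb, 8.57 to 13.4). The Olfr density was 1.63 times (1.32 to 2.03) the Vmn1r density in control and 1.68 times (1.31 to 2.16) in MICAL1-FL neurons. Over Vmn2r it was 1.58 times in both, with intervals of 1.28 to 1.96 and 1.248 to 2.03. The vomeronasal families could not be separated from each other at these counts, with Vmn1r at 0.962 times (0.729 to 1.27) and 0.938 times (0.678 to 1.296) the Vmn2r density.

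By gene, 53.4% of Olfr genes had a control summit within 20 kb and 44.3% a MICAL1-FL summit. The shares were 35.5% and 26.8% for Vmn1r genes and 42.3% and 34.1% for Vmn2r genes. Over all receptors, 370 (25.4%) had a summit of both lists within 20 kb, 354 of the control list alone, 223 of the MICAL1-FL list alone, and 511 (35.0%) of neither. Of all 20665 autosomal protein-coding genes, 15273 (73.9%) had a summit of both lists and 1446 of neither. Another 2270 had a summit of the control list alone and 1676 of the MICAL1-FL list alone.

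**Figure D1:**
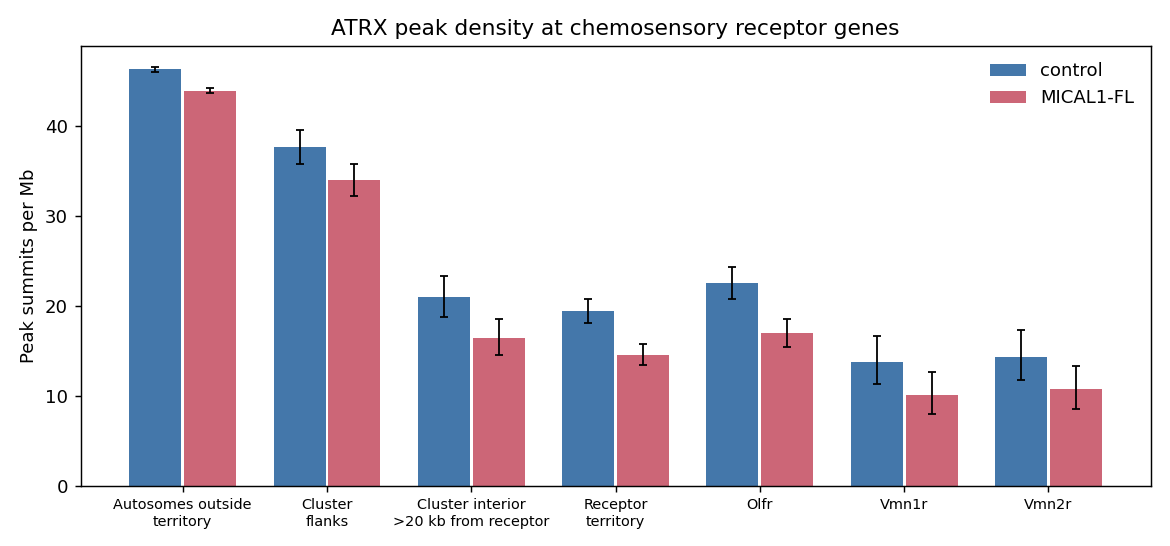
Bars give ATRX peak summits per Mb in the territory of each receptor family, in cluster flanks and in the remaining autosomes, for the control and the MICAL1-FL library, with 95% exact intervals for counting error. Olfr lies above both vomeronasal families, and all 3 lie below the flanks (37.7 and 33.95 per Mb).

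Class I odorant receptors, the older class that is also found in fish, sit together in 1 array on chromosome 7. That array, taken as the cluster that holds Olfr78 and running from Olfr543 to Olfr692, has 126 genes. It held 44 control peaks (19.2 per Mb, 13.95 to 25.8) and 26 MICAL1-FL peaks (11.3 per Mb, 7.41 to 16.6). Olfr territory elsewhere held 22.8 and 17.5 peaks per Mb. The class I array was at 0.842 times (0.605 to 1.15) that density in control neurons, an interval that includes 1, and at 0.649 times (0.419 to 0.965) in MICAL1-FL neurons.

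Most receptors stand in large arrays, and peak density was higher around the few that do not. A cluster was taken as 5 or more receptor genes with gaps of up to 500 kb. This gave 45 clusters with 1407 genes and left 51 genes outside. Those 51 stand alone or in groups of fewer than 5. Territory in clusters held 18.4 control peaks per Mb (17.1 to 19.8), and territory of receptors outside clusters held 39.5 (31.3 to 49.3). In MICAL1-FL neurons the values were 13.9 (12.7 to 15.1) and 29.4 (22.3 to 38.01). Receptors outside clusters thus carried ATRX peaks at about the density of cluster flanks.

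Flanks were the 500 kb outside the outermost receptor margins of a cluster on both sides, 42.4 Mb in all. They held 1598 control peaks (37.7 per Mb, 35.8 to 39.5) and 1441 MICAL1-FL peaks (33.95 per Mb, 32.2 to 35.8). Receptor territory had 0.516 times (0.474 to 0.562) the flank density in control and 0.430 times (0.390 to 0.473) in MICAL1-FL neurons. The flanks themselves were below the remaining autosomes, at 0.810 times (0.771 to 0.851) and 0.770 times (0.730 to 0.811). By family, Olfr stood at 0.598 and 0.499 of this flank density, Vmn1r at 0.366 and 0.298, and Vmn2r at 0.380 and 0.317. These ratios use the flanks of all clusters together, not those of each family's own clusters. Own flanks of clusters with vomeronasal genes alone ran from 5.05 and 1.01 per Mb (Vmn2r46 to Vmn1r71) to 51 and 56 (Vmn1r40 to Vmn1r54). The part of such differences in the family ratios was not tested.

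Flanks hold many other genes and receptor arrays few, so both were also compared where other protein-coding genes are far. Farther than 20 kb from any such gene, the territory held 18.2 control and 13.6 MICAL1-FL peaks per Mb, against 30.7 and 28.8 in flanks. The ratios were then 0.594 (0.518 to 0.682) and 0.473 (0.408 to 0.548). Within 20 kb of another protein-coding gene the territory held 30.5 and 23.5 peaks per Mb and the flanks 39.8 and 35.5, with ratios of 0.766 (0.633 to 0.920) and 0.662 (0.533 to 0.814). Autosomal sequence far from other protein-coding genes and outside the territory held 44.2 and 43.4 peaks per Mb. The low density of receptor arrays was therefore measured both near to and far from other genes.

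The density was lower inside a cluster than outside in every distance bin of both lists, though intervals of the bins next to the edge overlapped. In control neurons it was 36.7 per Mb (28.4 to 46.6) in the first 20 kb outside the outermost receptor gene and 25.3 (20.8 to 30.4) in the first 50 kb inside. Deeper inside it was lower with distance: 22.6 at 50 to 100 kb, 21.8 at 100 to 200 kb, 19.9 at 200 to 500 kb, 15.1 at 500 to 1000 kb and 12.2 at 1000 to 2000 kb from the edge. In MICAL1-FL neurons the density changed little over most of the inside: 16.8 per Mb (13.2 to 21.03) in the first 50 kb, 17.8 at 50 to 100 kb, 17.6 at 100 to 200 kb, 14.7 at 200 to 500 kb and 14.3 at 500 to 1000 kb. It was 6.62 (4.90 to 8.75) at 1000 to 2000 kb. Outside, the MICAL1-FL density was 23.3 (16.8 to 31.5) in the first 20 kb, 27.8 at 20 to 50 kb and 35.6 at 50 to 100 kb. At 500 to 1000 kb outside the edge the lists held 41.0 and 37.7 per Mb. Only the largest clusters reach the deepest bins.

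**Figure D2:**
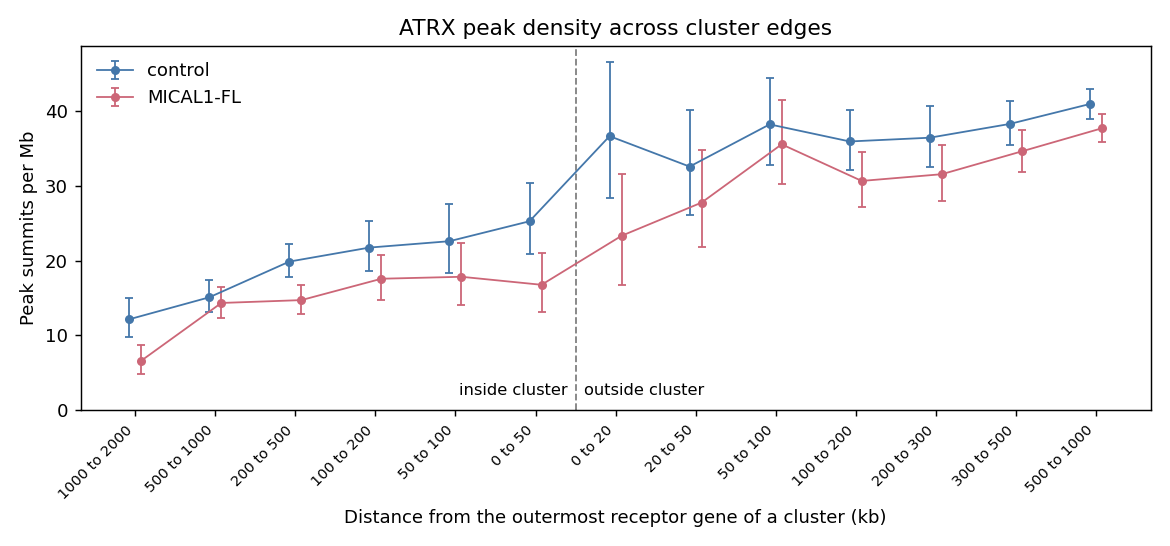
Points give ATRX peak summits per Mb by distance in kb from the outermost receptor gene of a cluster, inside and outside, for each library, with 95% exact intervals for counting error. Density is lowest deep inside, 12.2 and 6.62 per Mb at 1000 to 2000 kb, and reaches 41.0 and 37.7 per Mb at 500 to 1000 kb outside.

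Within the arrays, peaks were not gathered on the receptor genes. Gene bodies of receptors held 86 control peaks (15.1 per Mb, 12.05 to 18.6) and 77 MICAL1-FL peaks (13.5 per Mb, 10.6 to 16.9). Sequence within 5 kb of a receptor gene, bodies left out, held 14.8 per Mb (12.8 to 16.9) and 11.1 (9.42 to 13.0). Sequence 5 to 20 kb away held more, 23.5 (21.5 to 25.6) and 17.1 (15.4 to 18.9). Gaps inside clusters farther than 20 kb from a receptor gene, which are not part of the territory, held 20.9 (18.8 to 23.3) and 16.4 (14.5 to 18.5), or 0.556 and 0.484 times the flank density. The low density thus extended over the whole array, gaps included. Of the member peaks, 671 (82.5%) in control and 479 (78.5%) in MICAL1-FL neurons lay outside any annotated gene, and 33 and 30 lay in a protein-coding gene of another kind.

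Each cluster was then set against its own flanks. In both lists 40 of 45 clusters were less dense than their flanks and 5 were denser. The interval of the ratio lay below 1 for 15 clusters in control and 19 in MICAL1-FL neurons, and above 1 for 0 in either. Cluster density ran from 2.51 to 78.0 peaks per Mb with a median of 21.1 in control, and from 0 to 44.7 with a median of 16.5 in MICAL1-FL neurons. The flank medians were 39 and 35 per Mb. The 15 clusters of 30 or more genes together held 16.8 and 12.3 peaks per Mb, and the smaller ones 21.4 and 16.6.

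**Figure D3:**
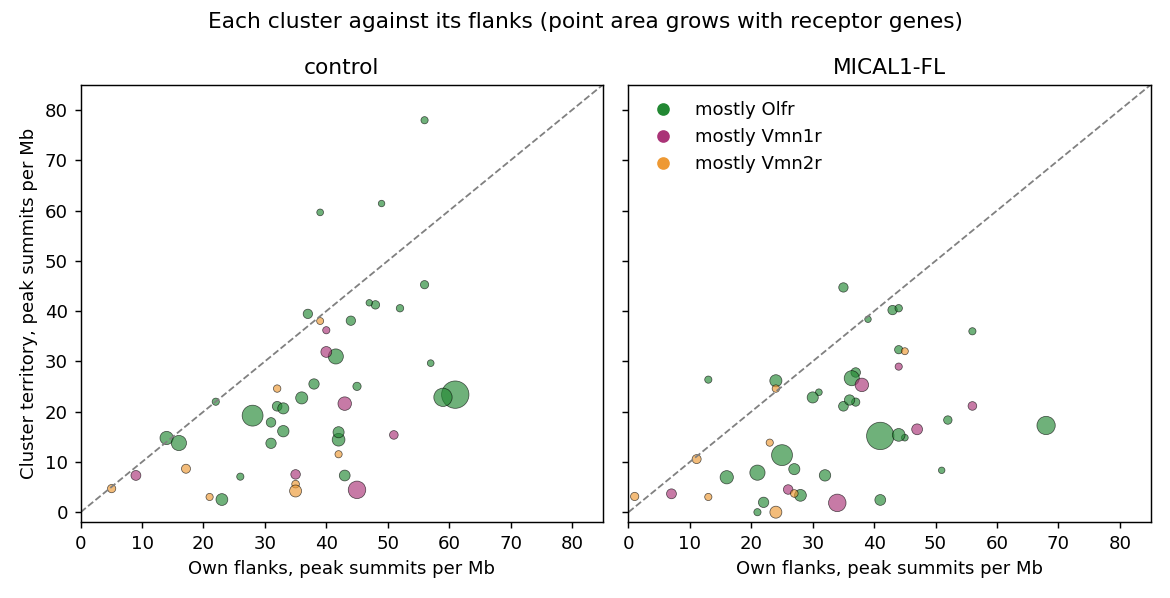
Each point is 1 of the 45 receptor clusters, with the density of its flanks on the horizontal and of its receptor territory on the vertical axis, both in peak summits per Mb, for control (left) and MICAL1-FL (right); point area grows with the number of receptor genes and colour gives the most frequent family. In each panel 40 clusters lie below the line of equal density.

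The largest cluster is the odorant receptor array of chromosome 2 from Olfr987 to Olfr1274, with 222 genes in 4.75 Mb of territory. It held 111 control peaks, 19.2 to 28.2 per Mb by its interval, and 72 MICAL1-FL peaks, 11.9 to 19.1 per Mb. Against its flanks the ratio interval was 0.278 to 0.533 in control and 0.249 to 0.557 in MICAL1-FL neurons. The second chromosome 2 array, Olfr1275 to Olfr1318 with 37 genes, held 20 and 23 peaks. The chromosome 9 array from Olfr160, the receptor known as M72, to Olfr986 has 95 genes and held 53 (22.9 per Mb) and 40 (17.2 per Mb), against 59 and 68 per Mb in its flanks. On chromosome 10, Olfr9 to Vmn2r87 with 62 genes held 43 (31.0 per Mb) and 37 (26.7 per Mb). On chromosome 19, Olfr1417 to Olfr1505 with 63 genes held 21 and 12.

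The sparsest large arrays included the main Vmn1r array. On chromosome 7, Vmn1r91 to Vmn1r183 has 86 genes in 2.70 Mb of territory and held 12 control peaks (4.45 per Mb) and 5 MICAL1-FL peaks (1.85 per Mb). Its flanks held 45 and 34 per Mb. The chromosome 17 array from Vmn2r90 to Vmn1r237, with 36 genes in 1.898 Mb, held 8 control peaks and 0 MICAL1-FL peaks, and the exact interval of that 0 reaches 1.94 per Mb. An odorant receptor array was as sparse: Olfr24 to Olfr18 on chromosome 9, with 35 genes in 1.19 Mb, held 3 (2.51 per Mb) and 4 (3.35 per Mb) against 23 and 28 per Mb in its flanks. At the other end stood 2 small odorant receptor arrays. Olfr1416 to Olfr12 on chromosome 1, with 8 genes, held 13 control peaks (78.0 per Mb) and 6 MICAL1-FL peaks (35.99 per Mb) beside flanks at 56 per Mb in both. Olfr1396 to Olfr1380 on chromosome 11, with 19 genes, held 15 (39.4 per Mb) and 17 (44.7 per Mb). Of the other large arrays, Olfr1370 to Vmn1r223 (48 genes, chromosome 13) held 29 and 34, Olfr90 to Olfr136 (46 genes, chromosome 17) 17 and 8, and Olfr467 to Olfr519 (42 genes, chromosome 7) 15 and 16.

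Single receptors differed in how many summits lay within 20 kb. Olfr31, an odorant receptor outside the clusters, had 6 control and 5 MICAL1-FL summits, Olfr1393 had 4 and 5, Olfr1414 had 7 and 2, and Olfr211 had 6 and 3. Among Vmn1r genes the highest total over both lists was shared by 6 genes: Vmn1r193, Vmn1r2, Vmn1r3 and Vmn1r40 had 3 and 4 each, Vmn1r4 had 4 and 3, and Vmn1r21 had 5 and 2. Vmn2r1, a member of the subfamily that is expressed together with other Vmn2r receptors, had 5 and 5, and 4 of the control and all 5 of the MICAL1-FL summits lay in the gene. Vmn2r29 had 4 and 5, and Vmn2r118 had 5 and 3.

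Receptors studied often in the field ranged from 0 summits to the 5 and 5 of Vmn2r1. Olfr17 (P2), Olfr15, Olfr2 (I7), Olfr73 and the vomeronasal receptors Vmn1r49 and Vmn2r116, the receptor of the male pheromone ESP1, had 0 and 0 summits within 20 kb. Olfr16 (MOR23) had 2 and 0, Vmn2r26 had 2 and 0, and Olfr160 had 4 and 1. Olfr78, a class I receptor also found in the carotid body, had 1 and 2. Olfr544, Olfr545 and Olfr1507 (MOR28) had 1 and 0 each. A difference of 1 or 2 peaks at a gene is within counting error.

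Annotated receptor starts did not stand out. RefSeq windows were matched for 1260 of the 1458 receptors (86.4%). Within 1 kb of these starts the control density was 0.759 times (0.538 to 1.04) that at 5 to 20 kb, and the MICAL1-FL density 1.02 times (0.716 to 1.42). At other protein-coding genes the same ratio was 3.35 (3.23 to 3.47) and 3.59 (3.46 to 3.72). For most receptors the annotated start is that of the coding sequence: 963 windows (76.4%) had ATG at the start, against 3.45% for other genes. Odorant receptor transcripts often have non-coding first exons upstream, so their promoters can lie outside these windows.

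Summits fell in the windows of 14 of 1260 receptors, 9 with a control and 6 with a MICAL1-FL summit, at depths of 4 to 9 fragments. The share for windows of other genes is not given here. Within 1 kb of starts, receptors held 16.3 control and 15.9 MICAL1-FL peaks per Mb, and other protein-coding genes 134 and 127. Depth here is the number of fragments stacked at the summit, recovered from the fold and p of the authors' peak caller. At Olfr459, printed above, the control peak (chr6:41772323-41772742, depth 5) and the MICAL1-FL peak (chr6:41772212-41772456, depth 6) had summits 8 bp apart, 63 and 71 bp upstream of the start. At Olfr1393 a control peak (chr11:49280046-49280316) had depth 9 and a summit 48 bp past the start. At Olfr212 the control summit had depth 7, and at Vmn1r32 the MICAL1-FL summit had depth 4.

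The printed windows with a summit are richer in GC than most receptor windows. The median GC content was 35.7% over receptor windows (35% for Olfr, 36% for Vmn1r and 38% for Vmn2r) against 57.7% over those of other genes. The median number of CpG dinucleotides was 1 against 15, and 31.3% of receptor windows had none against 2.82% of the others. The windows with a summit had a median of 44%, and 13 of 14 were at or above the upper quartile of receptor windows, 39.3%. Olfr212, at 62.3% with 13 CpG, was the extreme of all receptors, and Vmn1r32 had 0 CpG at 44%.

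Motifs of factors that act at odorant receptor promoters and enhancers were counted on both strands. The EBF-type motif, TCCC and GGGA with any 2 bases between them, was in 5 receptor windows (0.397%) against 0.948% of all windows. TAATTA, a homeodomain core as bound by LHX2, was in 209 (16.6%), against 4.68% of all windows. By family the shares were 18.6% for Olfr, 7.28% for Vmn1r and 17.2% for Vmn2r. TAATTA holds only A and T, and median GC was 35.7% over receptor windows against 56.7% over all windows. The part of base composition in the counts of both motifs was not tested. Both motifs read the same on both strands, a match of one cannot overlap a match of the other, and a match of letters is not a measured site.

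Receptors with the most GC-rich windows had the highest peak density in both lists. For this the receptors were split into 4 groups of 315 by GC content. The group with the most GC-rich windows held 27.4 control peaks per Mb (24.2 to 30.9), against 18.3, 15.6 and 14.2 in the other groups from low to high GC. In MICAL1-FL neurons the most GC-rich group held 20.3 (17.6 to 23.3), against 14.02, 10.8 and 11.8. Other protein-coding genes were split into 4 groups by their own GC content. Their group of lowest GC, 25.7 to 50.3%, held 41.0 and 38.3 peaks per Mb, above each receptor group. The receptor groups spanned 18.3 to 32.3%, 32.3 to 35.7%, 35.7 to 39.3% and 39.3 to 62.3%, so the groups are not matched for GC. By distance to the next receptor, from the closest to the widest spacing, the 4 groups held 17.4, 20.7, 21.5 and 18.2 control peaks per Mb. The MICAL1-FL values were 16.2, 15.4, 14.6 and 13.5, which decline with spacing, and the intervals of the first and last groups overlap in both lists (14.4 to 20.98 and 16.2 to 20.4 in control, 13.2 to 19.6 and 11.8 to 15.4 in MICAL1-FL).

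Copies of these genes can be nearly identical, as the windows of Olfr1354 and Olfr8 show: they differ by 1 base of 300. Olfr1354 had 3 control and 0 MICAL1-FL summits within 20 kb, and Olfr8 had 3 and 3. The median identity of a window to the nearest other receptor window was 57% for Olfr, 89% for Vmn1r and 92% for Vmn2r. At least 90% identity was reached by 57 Olfr windows (6.08%), 100 Vmn1r windows (48.5%) and 66 Vmn2r windows (56.9%). Over all receptors in 4 groups of rising identity, control density was 23.9, 21.98, 17.3 and 15.004 per Mb, and MICAL1-FL density 16.6, 17.9, 13.6 and 11.03. Within Olfr alone the order was not kept: 24.5, 22.5, 18.9 and 22.8 in control, and 17.4, 18.04, 13.4 and 20.6 in MICAL1-FL neurons. The sources used here do not give how reads that match more than one copy were placed, and the part of this in the low density was not tested.

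**Figure D4:**
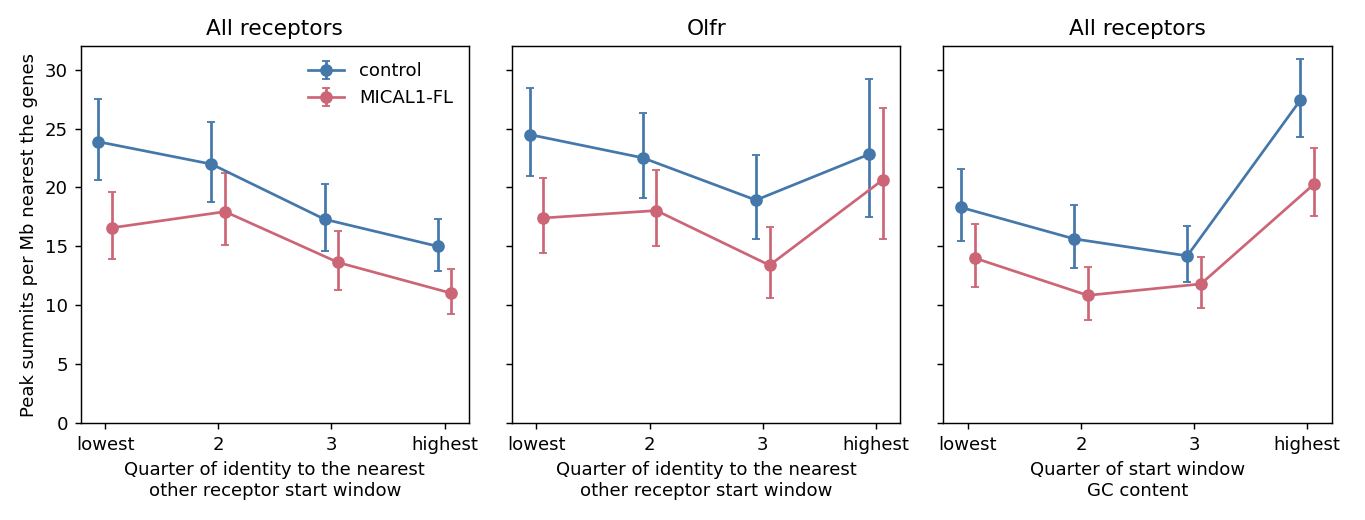
Points give ATRX peak summits per Mb for each library, with 95% exact intervals for counting error. The outer panels show 4 groups of 315 receptors each. They are ordered by identity of the start window to the nearest other receptor window (left) and by GC content of the window (right). The middle panel shows Olfr alone in the same identity groups, with 291, 296, 242 and 109 genes. Over all receptors, control density runs from 23.9 to 15.004 per Mb with rising identity, and is highest, 27.4 per Mb, in the most GC-rich group. Within Olfr alone, control density is 24.5, 22.5, 18.9 and 22.8 per Mb with rising identity.

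Nearly all member peaks were weak, as were peaks elsewhere. The median depth was 5 fragments and the median width 326 bp in both lists, and q was 1 for 95.9% of control and 96.7% of MICAL1-FL member peaks. A q under 0.05 was reached by 7 control members (0.861%) and 3 MICAL1-FL members (0.492%), against 0.350% and 0.295% of all autosomal peaks. Depth was 7 or more in 14.9% and 11.1% of members, against 16.6% and 14.1% of autosomal peaks.

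The deepest member peak lay 17445 bp from Vmn2r129, a vomeronasal receptor outside the clusters, on chromosome 4. The control peak (chr4:156356852-156357223) had 177 fragments over a background of 102, a fold of 1.73 and q of 2.32e-07. The MICAL1-FL peak (chr4:156356836-156357264) had 116 fragments over a background of 42.2, a fold of 2.71 and q of 1.18e-16, with its summit 6 bp away. Such a background is far above the lowest of the lists, 1.62 fragments in each, so the site collected many fragments in the background too. A further MICAL1-FL peak near this gene (chr4:156341229-156341797) had depth 18, fold 4.26 and q of 0.00015.

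The other control members with q under 0.05 had depths of 10 to 19. Near Vmn2r30, in the neighbouring chloride transporter gene Clcn4, a peak (chr7:7298557-7299360) had depth 12, fold 4.96 and q of 0.000706. In Vmn2r29 a peak (chr7:7277745-7278500) had depth 19 over a background of 5.23, fold 3.21 and q of 0.0205. Near Olfr237 a peak (chr6:43145385-43145806) had depth 12, fold 4.56 and q of 0.00296, and near Vmn1r130 a peak (chr7:21497483-21497931) had depth 11, fold 4.58 and q of 0.00518. The last 2 were near Olfr31, in the interleukin 3 receptor gene Il3ra (chr14:14347617-14348248, depth 11, q of 0.0253), and near Vmn2r89, in Gm7247 (chr14:51438312-51438655, depth 10, q of 0.0338). The remaining MICAL1-FL member was near Olfr1417, in the syntaxin gene Stx3 (chr19:11818286-11818854, depth 11, fold 4.59, q of 0.00368). Several of the strongest peaks near receptors thus lay in genes of other kinds. The peak near Olfr461 did not reach this q but was among the strongest of both lists, with depth 9 in control (chr6:40551977-40553041) and 10 in MICAL1-FL neurons (chr6:40552133-40553418). Further peaks among the 3 strongest of a family were near Olfr1413 (depth 9) and Vmn2r88 (depth 9) and, at depth 7, near Vmn1r3 and Vmn1r21, all in the MICAL1-FL list. Near Vmn1r238, outside the clusters, the control peaks had depths of 25 over a background of 9.71 and 12 over 3.32, and the MICAL1-FL peak 12 over 3.84. The control peaks (chr18:3118992-3119242 and chr18:3114342-3114726) and the MICAL1-FL peak (chr18:3116928-3117279) lie just past the first 3 Mb of the chromosome, which flanks leave out. The peak near Vmn1r3 (chr4:3192783-3193130) lies close to that stretch too. The part of this position in these peaks was not tested.

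Few member peaks were found in both lists. Of the control members, 41 of 813 shared 1 bp or more with a peak of the MICAL1-FL list, or 5.04% (3.64 to 6.78), against 6.85% of all autosomal control peaks. Of the MICAL1-FL members, 41 of 610 overlapped a control peak, or 6.72% (4.87 to 9.01), against 7.23%. The interval of the control share lies below its background, and that of the MICAL1-FL share includes it. When a gap of up to 1 kb was allowed, the shares were 10.9% (8.88 to 13.3) against 17.8% of autosomal control peaks, and 14.8% (12.03 to 17.8) against 18.7% in MICAL1-FL, so members were then below background in both lists. The density of the other list, which is lower in receptor territory, moves with these shares, and its part in them was not tested. By family the shares of control members were 3.83% for Olfr, 7.62% for Vmn1r and 9.17% for Vmn2r, on 23, 8 and 10 peaks.

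Summits of both lists lay within 250 bp of each other at 26 places, 12 of them within 50 bp, with median depths of 7 and 5. Beside Vmn2r129, the strongest were at Vmn2r30 (depths 12 and 8) and in Vmn2r29 (19 and 18, summits 95 bp apart). At Olfr796 both peaks had depth 7 and summits 11 bp apart, and at Olfr8 the depths were 8 and 5 with summits 7 bp apart, 1255 bp from the gene. The pair in the gene Vmn2r117 had depths of 8 and 5, that near Vmn1r193 8 and 5, that near Olfr401 10 and 7, that near Vmn2r3 7 and 6, and that near Vmn1r2 20 and 17. Weaker pairs lay near Olfr974 (7 and 5), Olfr153 (7 and 4), Vmn1r21 (5 and 7) and a second time near Vmn2r30 (7 and 5), and a pair near Vmn1r238 had 13 and 12.

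The 813 control and 610 MICAL1-FL peaks of receptor territory stand in a ratio of 0.7503, while the ratio over autosomal peaks outside it was 0.948. Relative to those peaks the members were at 0.791 times (0.711 to 0.880) in the MICAL1-FL list. Relative to cluster flanks they were at 0.832 times (0.731 to 0.946), and the flanks relative to other autosomal peaks were at 0.9502 times (0.884 to 1.02). The relative ratio was 0.794 (0.702 to 0.899) for Olfr, 0.773 (0.569 to 1.05) for Vmn1r and 0.793 (0.588 to 1.07) for Vmn2r. It was 0.792 (0.708 to 0.886) in clusters and 0.784 (0.548 to 1.12) for receptors outside them. In gaps inside clusters farther than 20 kb from a receptor gene, which are not members, it was 0.828 (0.703 to 0.975). A lower number was therefore not particular to receptor territory. For receptor pseudogenes it was 1.04 (0.858 to 1.27), and the difference from the members was not tested. With 1 library per condition, a difference between libraries and a difference between conditions cannot be told apart.

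By cluster, MICAL1-FL peaks were fewer than control peaks in 29, more in 12 and equal in 4. The flanks of the clusters split much the same way, with fewer in 31, more in 13 and equal in 1. This split is thus not particular to receptor territory. Leaving out each cluster in turn gave relative ratios from 0.775 to 0.808. Of the 33 clusters with 10 or more peaks, 2 (6.06%) had an interval below 1 and 0 above, near the 7.29% of 1-Mb autosomal windows whose interval excludes the autosomal ratio. These were Olfr987 to Olfr1274, at 0.68 (0.50 to 0.93), and Olfr1358 to Vmn2r83 on chromosome 10, with 27 and 12 peaks, at 0.47 (0.22 to 0.96). Among the clusters with fewer than 10 peaks, Vmn2r90 to Vmn1r237, with 8 control and 0 MICAL1-FL peaks, also had an interval below 1 (0 to 0.618).

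The difference moved with the background of the peaks. Of control members, 31.5% (28.3 to 34.8) had a background above the lowest value of their list, and of MICAL1-FL members 19.3% (16.3 to 22.7). Over all autosomal peaks the shares were 37.2% and 31.6%. Among members at the lowest background there were 557 control and 492 MICAL1-FL peaks, a relative ratio of 0.856 (0.756 to 0.968). Among those above it there were 256 and 118, a relative ratio of 0.571 (0.455 to 0.713). The flanks were at 0.981 (0.898 to 1.07) and 0.896 (0.791 to 1.01) in the same classes. The part of this difference in background in the relative ratio was not tested beyond these values. By depth the relative ratio was 0.797 at 4 fragments, 0.769 at 5, 0.843 at 6 and 0.698 at 7 or more.

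**Figure D5:**
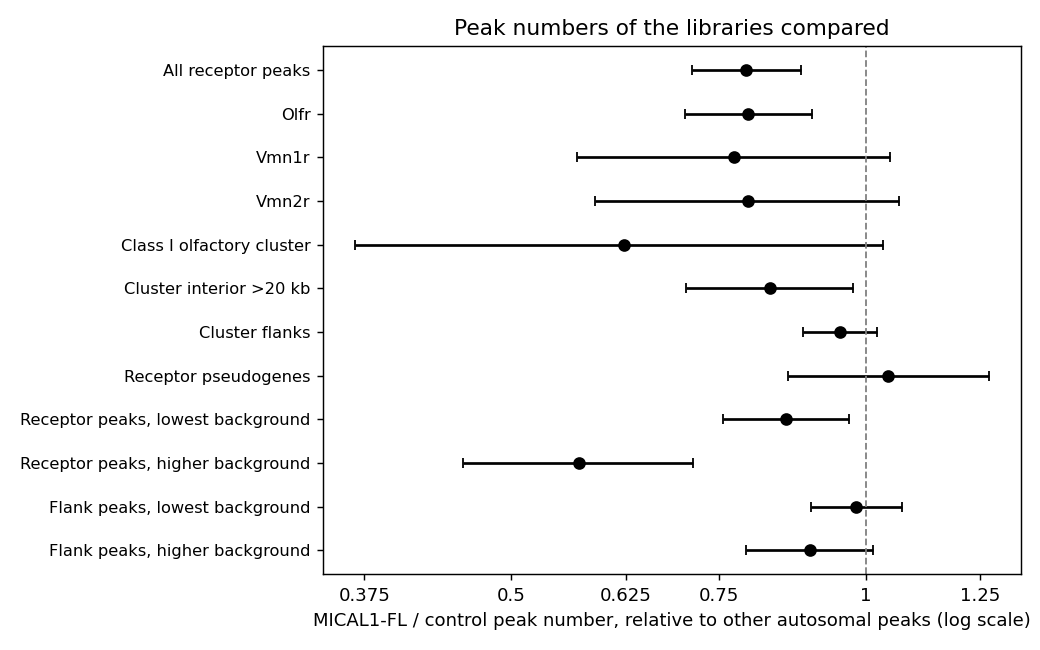
Points give the number of MICAL1-FL peaks over control peaks relative to the same ratio of other autosomal peaks, on a log axis, by receptor family, region and class of peak, with 95% exact intervals for counting error. All members lie at 0.791, cluster gaps farther than 20 kb from a receptor gene at 0.828, members above the lowest background at 0.571 and receptor pseudogenes at 1.04.

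Genes that work with the receptors were not sparse. Of 29 listed genes of olfactory and vomeronasal signalling and receptor choice, 26 (89.7%) had a control and 28 (96.6%) a MICAL1-FL summit within 20 kb, against 84.9% and 82% of all autosomal protein-coding genes. Their density was 40.5 per Mb (34.2 to 47.5) and 48.4 (41.5 to 56.1). The transduction genes Gnal, the olfactory G protein alpha subunit, and Adcy3, the olfactory adenylyl cyclase, had 8 and 9, and 9 and 4 summits. Ano2, a chloride channel of olfactory cilia, had 14 and 14. Of the transcription factors, Lhx2 had 6 and 7 and Ebf1 had 12 and 22. Omp, the olfactory marker protein, had 1 and 5, Trpc2, the vomeronasal channel, had 0 and 1, and Gng13 had 0 and 0. The list holds several long genes, so its counts per gene are not set against those of the short receptor genes.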

How the data were processed

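The 2 ATRX peak lists, 1 per condition, came from 1 ChIP library each. The submitters' processing notes name MACS 1.4.2, Bowtie 1.3.0, ChIPseeker 1.26.2 and SAMtools 1.9 without saying what each did. Not given in the sources used here are the genome build, the calling threshold and the placing of reads with several matches. The deposited score equals 10 times the −log10 p, cut to a whole number. The authors' peak caller gave the deposited fold, a ratio over background, and the deposited −log10 q and −log10 p values. The highest p was 0.0498 in control and 0.0496 in MICAL1-FL.

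The read depth of the libraries is unknown. Fragments at a summit and in its background were recovered from fold, taken as summit + 1 over background + 1, and p, taken as the Poisson probability of a higher count. This matched the deposited −log10 p within 0.001 for 99.95% of control and 99.97% of MICAL1-FL peaks and for all member peaks. It is an inference that no label states. A background counted as above the lowest when it exceeded it by more than 0.001 fragments.

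Gene positions were RefSeq's for GRCm38.p6, and none are printed. The build fits the lists in that summits were 4.25 and 5.39 times as dense within 250 bp of annotated starts as 5 kb away. Bases that 2 families share were given to both and counted once in totals. Flanks leave out receptor margins, other clusters and the first 3 Mb of a chromosome, and flank bases shared by neighbouring clusters were counted once. Densities have exact Poisson intervals, density ratios exact conditional intervals, and shares exact Clopper-Pearson intervals. The reference of autosomal peaks was taken as fixed, and against flanks Fisher's conditional interval was used. Window identity was taken over 300 bases by edit distance (edlib 1.3.9.post1). Protein identity had been planned and was not used, as no protein sequences were at hand. Computations used Python 3.11.15, numpy 2.4.6, pandas 2.3.3, SciPy 1.17.1 and matplotlib 3.10.9, and were tested on simulated data.

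The members and the gene lists were chosen with earlier results of these data known. Genes were named by rule: the 3 strongest peaks per family and list, members with q under 0.05, the 15 strongest pairs of summits within 250 bp, the 3 receptors per family with most summits, the 10 largest clusters with the densest and sparsest, and receptors known in the field. Receptors whose number of summits ties with those named, which are Olfr211, Vmn1r3, Vmn1r4 and Vmn1r40, are named too. Olfr459, Olfr8 with Olfr1354, Olfr1393, Olfr212 and Vmn1r32 as shown windows, Olfr1358 to Vmn2r83 and Vmn2r90 to Vmn1r237 were chosen after their values were seen. Of the known receptors, Olfr151 was not matched. Alternatives changed the margin, flank, gap, threshold, placing, overlap and reference.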

Additional observations from a re-analysis of the deposited data

How the results depend on the processing

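Alternatives were run for territory over flank density, family densities, the MICAL1-FL to control ratio of members, the share found in the other list and the share of receptor genes with a summit, and none reversed a direction. The other comparisons had none. Of 53 planned values 30 stayed within their spread and 23 moved, and of 47 added after seeing the data 46 stayed and 1 moved. The added 47 leave out each cluster in turn or split members by background, and relative to other autosomal peaks members above the lowest background stood at 0.571. With a margin of 5 kb, territory over flank density was 0.395 in control and 0.356 in MICAL1-FL, Olfr held 17.8 and 13.5 peaks per Mb, Vmn1r 8.93 and 7.44, and Vmn2r 9.95 in control, and 16.7% and 13.5% of receptor genes had a summit nearby. With a margin of 50 kb, those shares were 79.1% and 65.8%. Over all autosomal protein-coding genes the shares were 66.0% and 63.4% at 5 kb, and 95.4% and 93.3% at 50 kb. Beyond 20 kb of other protein-coding genes the territory over flank density was 0.594 and 0.473. With −log10 p of at least 2, Olfr held 14.7 and 11.2 peaks per Mb, Vmn1r 9.32 and 6.56, and Vmn2r 11.04 and 7.75. With summits within 250 bp, 3.20% of control and 4.26% of MICAL1-FL members were found in the other list, against 4.47% and 4.72% of autosomal peaks. With a gap of up to 1 kb allowed the shares were 10.9% and 14.8%, against 17.8% and 18.7%.

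No paired analysis was possible because the groups share 1 replicate number, with 1 library each. Intervals cover counting error only, and spread between cultures was not measured. Most member peaks rest on 4 to 6 fragments, so single genes and small clusters are limited by counting. How well reads map to near-identical copies was not measured.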

Other observations

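Receptor pseudogenes are the decayed copies left in the arrays by the same duplications. Around the 584 autosomal receptor pseudogenes, within 20 kb and outside the territory of the intact genes, there were 210 control peaks (22.4 per Mb, 19.5 to 25.6) and 208 MICAL1-FL peaks (22.2 per Mb, 19.3 to 25.4). Around the 7 X-linked receptor genes there were 5 control peaks (17.0 per Mb) and 2 MICAL1-FL peaks (6.80 per Mb).

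Other tandem families spanned a wide range by the same measure. By point estimate, 11 of 15 such families were denser than the receptors in control and 10 in MICAL1-FL neurons. Medians over the families were 25.6 and 22.7 peaks per Mb. The trace amine receptors (Taar), the other receptors of the olfactory epithelium, held 8 (34.9 per Mb, 15.1 to 68.8) and 5 (21.8 per Mb, 7.09 to 50.9). The bitter taste receptors (Tas2r) held 24.9 and 22.7 per Mb, and the formyl peptide receptors (Fpr), some of which are expressed in vomeronasal neurons, held 3 and 1 peaks (11.4 and 3.81 per Mb). The major urinary proteins (Mup), which vomeronasal neurons detect, held 25.6 and 27.5 per Mb. Below the receptors in both lists by point estimate, beside Fpr, were Skint, Klr and Scgb. Skint held 1.61 per Mb in each, the lectin-like Klr genes 16.1 and 8.04, and Scgb 16.6 and 9.47. Many families could not be separated from the receptors at these counts. In control the intervals of Taar, Tas2r, Fpr, Ms4a, Mup, Klr, Scgb and Ugt included the receptors' 19.4 per Mb. In MICAL1-FL those of Taar, Tas2r, Fpr, Ms4a and Scgb included the receptors' 14.6. Zinc finger genes named Zfp held 47.2 and 41.0, and the clustered protocadherins, with 149 and 112 per Mb, were the densest. Peak numbers, control first, were higher in MICAL1-FL for Mup (26 and 28), Ugt (24 and 33) and Krtap (51 and 53). They were equal for Skint and lower in MICAL1-FL for the rest, among them Klr (22 and 11), Krt (70 and 42) and Serpin (108 and 72).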
